A study of Homo sapiens with 96 samples.

Results

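Of the 4149 A-to-I editing sites listed for the human leukaemia line K562, 579 carried an editing level in at least 10 of the 96 samples analysed and are described here as the recurrent sites. They were chosen by that number alone, so how often they were recorded is the rule and not a result. The other 3513 sites with levels were recorded in fewer samples, and 57 listed sites had no levels. The editing level is the fraction of the RNA at a position that reads as G in place of A, and a level of 0 in the list means that no editing was recorded in that sample. The list gives no read depth, so an unedited site and a site without reads cannot be told apart.

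K562 is an established line from a patient with chronic myeloid leukaemia, and total RNA without ribosomal RNA was sequenced with strand information. The 96 samples fall into 6 families. In the first, 32 samples had a single agent or none: no treatment, the solvent DMSO for 2 to 48 h, the kinase inhibitor imatinib, the topoisomerase II poison etoposide or the histone deacetylase inhibitor romidepsin for up to 48 h, the mTOR inhibitors rapamycin and Torin1 for 3 or 6 h, or the transcription blocker actinomycin D for 2 or 6 h. In 19 samples, 6 h of DMSO, etoposide, SN-38, talazoparib or cyclophosphamide was followed by 0 to 6 h of actinomycin D, and in 10 samples alpha-amanitin, an inhibitor of RNA polymerase II, was given alone or after 6 h of DMSO or etoposide. A wash-out of 0, 2 or 6 h after 6 h of DMSO, SN-38 or etoposide made up 9 samples. Another 10 samples had 3 h of DMSO or of a mixture of AZ-20, KU-60019 and NU7441, inhibitors of the DNA damage kinases, before DMSO, talazoparib, mirin, SN-38 or etoposide. The last 16 samples came from derivative lines made with lentiviral vectors, which overexpress AsiSI, Cas9 or LINE or carry shRNA to CSB, LIG3 or MRE11A, and which had doxycycline or water for 2 to 13 days. Most conditions had 1 sample, and the labels do not say whether repeated samples came from separate cultures, so p-values measure the spread between these samples, which may be technical. The study's own sources disagree on which of 10 time-course samples had etoposide and which romidepsin, so these drugs were never compared with each other there. The list holds no expression values, and the markers of the line were not checked.

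ADAR enzymes bind double-stranded RNA and deaminate adenosine to inosine, which the ribosome and reverse transcriptase read as guanosine. Editing of a coding base can change an amino acid, while most editing lies in introns and untranslated regions, where paired RNA is common. ADAR favours adenosines with certain neighbours, above all a U before the edited base, and avoids a G there.

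The sequences below are the RNA around 14 recurrent sites on which the results turn: those recorded most often, the most stable and the most variable, 5 edited codons, and sites whose level moved with time. Each runs from 12 bases before to 12 bases after the edited base, read from GRCh38 on the strand of the transcript, and the capital letter marks the edited adenosine.
GNL3L 3′ UTR, chrX:54563285-54563309, plus strand: gcaccucuacuuAugauggggcuac
PIP5K1C intron, chr19:3648315-3648339, minus strand: ccuugaaaaucuAgagugaguuggg
SSR4 5′ UTR, chrX:153795847-153795871, plus strand: gaaggcuaaggcAagguccuuucuc
EIF2AK2 3′ UTR, chr2:37100879-37100903, minus strand: ucucacacuuuuAccuguuacaugg
PPIA 3′ UTR, chr7:44802488-44802512, plus strand: guucuugagggaAgcauauugggcu
SON coding, chr21:33551001-33551025, plus strand: aacuggggcacuAgaguugccuggg
COG3 coding, chr13:45516224-45516248, plus strand: accauuaaggaaAuuucccuggacc
NEIL1 coding, chr15:75353733-75353757, plus strand: ccacagggggcaAaggcuacggguc
BLCAP coding, first site, chr20:37519158-37519182, minus strand: cagagaucauguAuugccuccagug
BLCAP coding, second site, chr20:37519149-37519173, minus strand: uguauugccuccAguggcugcugcc
UPK2 intron, chr11:118925710-118925734, plus strand: aggguccgggucAcagcccccgggc
STXBP5 intron, chr6:147247764-147247788, plus strand: auauagauuuuuAggggcugguacu
SMU1 3′ UTR, chr9:33042320-33042344, minus strand: cucucccucauuAcauuguucugag
MRPS22 5′ UTR, chr3:139355222-139355246, plus strand: cacuuagaggcaAgugacuuugaga

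Recurrent sites were 14.1% of the sites with levels and held 53% of all recorded levels. A typical recurrent site was still missing from most samples: the median was 17 samples (quartiles 12 and 24), 100 sites reached 30 samples and 30 sites reached 50. At the edge of the rule, the 102 sites in exactly 9 samples had a median level of 0.3 and the 59 sites in exactly 10 samples 0.316, with median SDs over samples of 0.144 and 0.153.

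**Figure D1:**
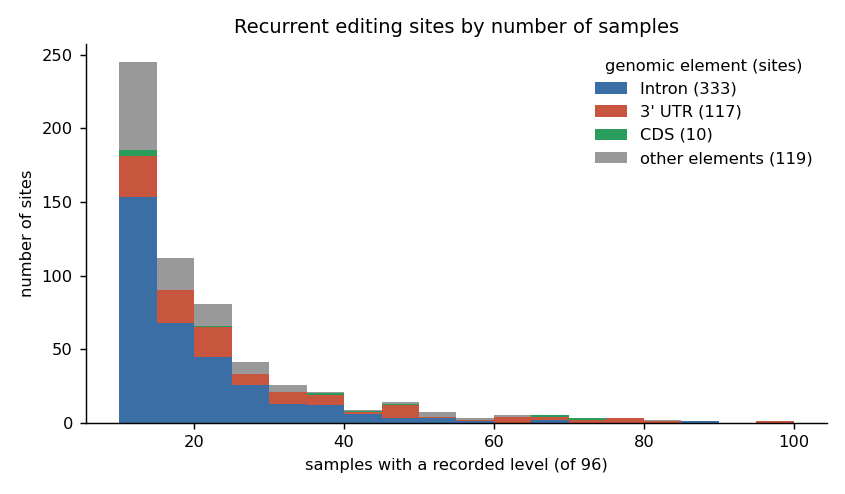
Number of recurrent sites (vertical axis) by the number of samples with a recorded level (horizontal axis, bins of 5 samples), stacked by genomic element. Most of the 579 sites lie at the low end, with a median of 17 samples, and a thin tail reaches 95.

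The most often recorded site was in the 3′ UTR of GNL3L, which encodes a nucleolar GTP-binding protein, with levels in 95 of the 96 samples. Its level was lowest at 0.07, had a median of 0.182 and reached 0.769. An intron site of PIP5K1C, a kinase that makes PIP2, followed in 85 samples with a median of 0.183. The 5′ UTR site of SSR4, a subunit of the translocon-associated complex of the endoplasmic reticulum, was recorded in 82 samples with a median of 0.455 and a range from 0.165 to 1. FAM20B, a kinase of glycosaminoglycan synthesis, had a 3′ UTR site in 80 samples at a median of only 0.05. A pair of 3′ UTR sites of EIF2AK2, the double-stranded RNA sensor PKR, were recorded in 76 and 74 samples at medians of 0.178 and 0.251. The second GNL3L site and the 3′ UTR site of SEC61A1, the channel of the translocon, were each recorded in 76 samples, at medians of 0.0454 and 0.03. The coding site of SON, a splicing cofactor of nuclear speckles, was recorded in 71 samples and the 3′ UTR site of PPIA, the prolyl isomerase cyclophilin A, in 70, at medians of 0.03 and 0.05. Recording in many samples did not need a high level: 5 of these 10 sites had medians of 0.05 or lower.

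The recurrent sites were 333 intron sites, 117 sites in 3′ UTRs, 35 in very long intergenic noncoding RNAs, 33 in 5′ UTRs, 15 in introns and 7 in exons of long noncoding RNAs, 10 in coding sequence, 11 antisense to genes and 18 elsewhere. Coding sequence and UTRs together held 27.6% of them (Wilson 95% interval 24.2 to 31.4) against 8.57% (7.69 to 9.54) of the other sites with levels. The 3′ UTR share was 20.2% (17.1 to 23.7) against 4.7%, and the intron share 57.5% (53.5 to 61.5) against 70.8%. These intervals count clustered sites as independent; with 1 site kept per cluster the 3′ UTR share was 12.8%, and with a minimum of 15 samples it was 26.7%. The list does not give expression, so the part of transcript abundance in these shares was not tested. The study also set stricter rules for unannotated sites outside introns and very long intergenic noncoding RNAs. It left unannotated sites out of its own enrichment by element for this bias, and the part of the bias here was not tested. Sites already annotated in editing databases were 89.6% (86.9 to 91.9) of the recurrent sites and 75.2% of the others. All 3 of the study's callers, REDItools, RED-ML and SPRINT, had found 69.4% of the recurrent sites and 17.7% of the others, and since a site can be found by more callers when it is found in more samples, this difference is tied to the rule.

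The bases around the edited adenosine did not set recurrent sites apart. A U came before it at 50.3% of them (46.2 to 54.3) and at 49.2% of the other sites, and a G came before it at 3.8% and 3.76%. A G followed at 46.8% (42.8 to 50.9) and 43.9%. The SON and GNL3L windows above hold the favoured U, whereas those of PPIA and NEIL1 have an A and those of SSR4 and UPK2 a C before the edited base. Median levels were 0.372 over the 291 recurrent sites with a preceding U, 0.302 over 189 with A, 0.337 over 77 with C and 0.241 over 22 with G.

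Recurrent sites lay close to other edited bases. Another listed site was within 100 bases on the same strand for 77.2% (73.6 to 80.4) of them and for 63.8% (62.2 to 65.4) of the others, at a median distance of 7 bases, and 137 had an edited neighbour at the next base. The 579 sites formed 359 clusters with links of up to 100 bases. Neighbours in a cluster share reads and are not independent of each other.

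Host genes on the site's strand were found for all but 40 recurrent sites in GENCODE release 44, and 21 sites lay under more than 1 gene. There were 261 host genes or combinations of overlapping genes, of which 161 had a single recurrent site, while 21 had 5 or more and held 169 sites. SMU1, a spliceosome factor, led with 18 recurrent sites in its 3′ UTR between 33042260 and 33043920 on chromosome 9, at median levels from 0.0907 to 0.321. RAB3GAP2, a regulator of Rab GTPases, had 12 in an intron at medians from 0.0616 to 0.286. RSPH3, a radial spoke protein, and ZNF514, a zinc finger protein, each had 12 in the 3′ UTR, with the highest medians at 0.691 and 0.37. DCPS, the scavenger enzyme that removes mRNA caps after decay, had 11 in its 3′ UTR, and MTCH1, a mitochondrial outer membrane protein, had 11 in introns with medians from 0.17 to 0.817. Sites of 1 gene thus differed widely in level.

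The gene lists gave few host genes. Of 18 known targets of recoding by ADAR, BLCAP held 3 recurrent sites and COPA, COG3, NEIL1 and SON 1 each; the COPA site and 1 of the BLCAP sites were intronic and that of SON left the amino acid as it was. Among 18 DNA repair genes, MRE11 held 3 and ERCC6 1, at median levels from 0.133 to 0.667. EIF2AK2 was the only one of 16 innate sensors and proteins that bind double-stranded RNA with recurrent sites, and all 9 of its listed sites were recurrent, at medians from 0.0534 to 0.339. Zinc finger genes held 15 of the recurrent sites and 106 of the sites with levels, in 3 and 32 genes.

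Of the 10 coding sites, 9 would change an amino acid when edited, written with the first residue from the reference and numbered along the protein. In the study's Sanger sequencing only some of its listed coding sites showed editing, and others failed. Which of the sites named here passed was not examined. BLCAP, a small protein lost in bladder cancer, had Y2C in 69 samples at a median of 0.21 (range 0.08 to 0.5) and Q5R in 45 samples at 0.08 (0.02 to 0.5), and their windows above overlap by all but 9 bases. COG3, a subunit of the Golgi tethering complex, had I635V in 43 samples at 0.14 (0.06 to 0.5). AKAP11, an anchor of protein kinase A, had N1759D in 36 samples at 0.26 (0.08 to 0.55). NEIL1, a DNA glycosylase of base excision repair, had K242R in 24 samples at 0.5 (0.2 to 0.833). No derivative-line sample recorded the recurrent coding sites of NEIL1, AKAP11, OR51I1, SPG7, DACT3 or CDK13. Each of these samples recorded only 26 to 83 of the 579 recurrent sites, so this absence is not read as a difference in editing. The remaining changes were recorded in 11 to 14 samples. The olfactory receptor gene OR51I1 had N97D at a median of 0.189, the cyclin-dependent kinase CDK13 Q35R at 0.095, the Wnt regulator DACT3 R259G at 0.5, and the mitochondrial protease gene SPG7 K206R at 0.292. The SPG7 change holds for a transcript that is not the gene's main one. The SON site is synonymous, at leucine codon 594.

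Levels differed by genomic element. The median over sites of the median level was 0.398 for the 333 intron sites and 0.178 for the 117 sites in 3′ UTRs. Medians above 0.5 were held by 71 intron sites and 6 sites in 3′ UTRs. The 15 intron sites of long noncoding RNAs had the highest value, 0.55, including 5 sites of FIRRE, a nuclear RNA transcribed from the X chromosome, at 0.5 to 0.818. Over all recurrent sites the median was 0.333 (quartiles 0.199 and 0.5), and it was 0.393 over the other sites.

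The level of a single recurrent site also ranged widely between samples. The median SD over samples was 0.163 (quartiles 0.129 and 0.197), and in 353 sites the highest and lowest levels were more than 0.5 apart. A level of 1 was recorded in at least 1 sample for 111 sites. Among the 100 sites in at least 30 samples, the most stable was an unannotated intron site of UPK2, a uroplakin of the bladder lining, with a level of 1 in 44 of 46 samples, 0.942 at its lowest and an SD of 0.0103. An unannotated intron site of KIAA1671 was like it, with 1 in 17 of 18 samples, and was picked out after its values were seen. The list holds RNA levels only, and the DNA at these positions was not examined here. The study had removed variants found by resequencing its K562 genome, but reports a false site that was a DNA variant this had missed. The other sites of low SD had low levels, all with medians of 0.03. SEC61A1 and SPCS3, a subunit of the signal peptidase, had SDs of 0.0436 and 0.0432. Another 3′ UTR site of GNL3L had 0.0486, and an antisense site on chromosome 3 at 73061025 had 0.0542. These 4 also had, with SON, the lowest medians. The SD of a fraction is held down near 0 and 1, and SEC61A1 still ranged from 0.01 to 0.212 and SPCS3 from 0.01 to 0.24.

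**Figure D2:**
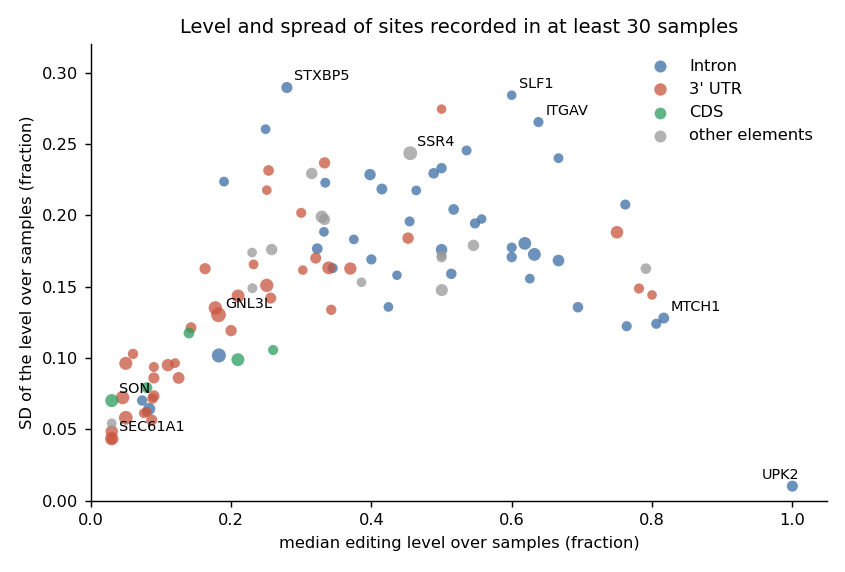
Each point is 1 of the 100 sites recorded in at least 30 samples; the horizontal axis gives its median editing level and the vertical axis the SD over samples, both as fractions, point size rises with the number of samples and colour gives the element. Low-level 3′ UTR and coding sites sit at the lower left, STXBP5 at the top with an SD of 0.29, and UPK2 alone at the lower right.

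The sites of highest SD had intermediate medians, where a fraction has most room for spread. STXBP5, the SNARE-binding protein tomosyn, had an intron site in 47 samples with a median of 0.28, a range from 0.0256 to 1 and an SD of 0.29, and a neighbour in 32 samples with an SD of 0.26. SLF1, a factor that brings the SMC5-SMC6 complex to damaged DNA, followed with an SD of 0.284, GDPD1, a lipid phosphodiesterase, with 0.274, and ITGAV, an integrin chain, with 0.265. High medians did not need a large spread: MTCH1 had 0.817 with an SD of 0.128, the nucleoporin gene NUP58 0.806 with 0.124, the LIM protein gene AJUBA 0.8 with 0.144 and the noncoding RNA LINC01203 0.791 with 0.163.

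How well repeated samples agreed set the scale for every later comparison. In the 2 samples with 2 h of DMSO, 161 and 144 recurrent sites were recorded and 75 in both, which was 32.6% of the sites recorded in either, with a median absolute difference of 0.0667. The 2 samples with 6 h of DMSO shared 23.8% and differed by a median of 0.109. Those labelled as 6 h of romidepsin shared 16.7% and differed by 0.0829. The second romidepsin sample is among the 10 whose drug is in doubt, so this pair may not be a repeat. With the 0 h samples of the later steps added, 5 samples had 6 h of DMSO. Their 10 pairs shared 23.8 to 36.8% of sites, with median differences from 0.065 to 0.149. Only 26 recurrent sites were recorded in all 5, with a median SD of 0.091, and 232 were recorded in none.

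Levels of neighbouring sites moved together somewhat more than those of sites far apart. Over pairs recorded together in at least 20 samples, the median Spearman's rho was 0.411 for 53 pairs within 100 bases and 0.249 for 3858 pairs on different chromosomes. These pairs share libraries and depth, and near pairs share reads, so the values are a description. The closest pairs were in introns of STXBP5 (rho 0.924 over 21 samples) and in the 5′ UTR of CD164, a sialomucin (0.816 over 45 samples).

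The number of recurrent sites with a level varied by family of samples. It was 26 to 83 (median 44) in derivative lines, 61 to 142 (94) after wash-out, 92 to 167 (121.5) with alpha-amanitin, 78 to 238 (147.5) with a single agent or none, 105 to 218 (159) with actinomycin D after a drug and 122 to 206 (163) after pretreatment. Derivative lines and the pretreatment samples did not overlap. Of the 95 samples with a read total, 7 had under 30000000 reads, 6 of them derivative lines; the 10 deeper derivative-line samples held 36 to 83 recurrent sites. The part of depth in this difference was not tested further. Median levels within a sample went from 0.222 to 0.5 over all samples.

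**Figure D3:**
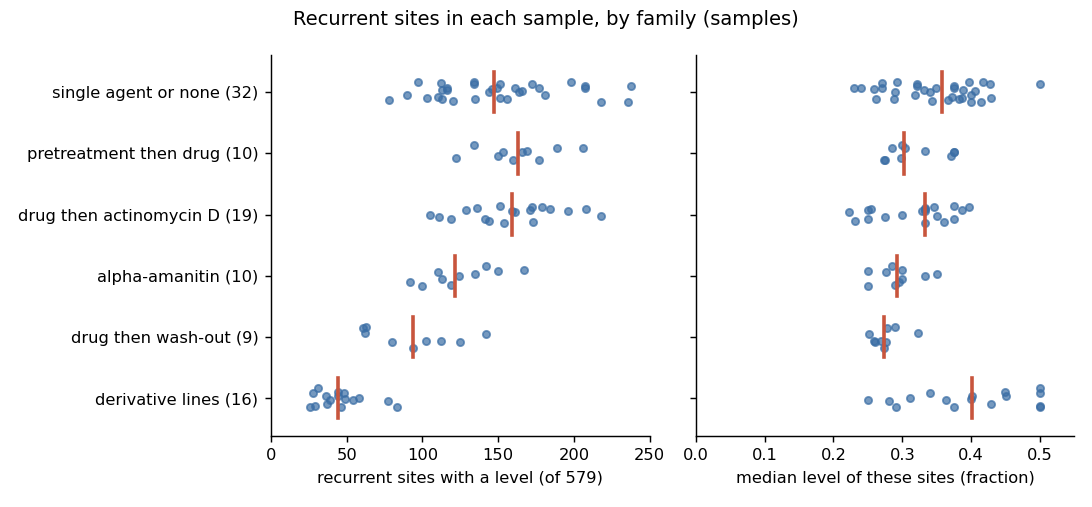
Each point is 1 sample, by family, with the number of recurrent sites that had a level (left, of 579) and the median level of those sites as a fraction (right); red bars are family medians. Derivative lines sit lowest in number, at 26 to 83 sites. Their levels go from 0.25 to 0.5, and those with a single agent or none from 0.23 to 0.5.

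Each family was compared with all other samples by limma on the recorded levels, over every listed site with at least 3 recorded levels on each side, and calls are at an adjusted p of 0.05. These comparisons share samples, and each gives its own values. In derivative lines, 3 of 104 recurrent sites tested were higher and none lower, and of all 106 sites tested 2.83% were called. The SSR4 site was recorded in 10 derivative-line samples from 0.4 to 1 (median 0.833) and in 72 others from 0.165 to 0.898 (median 0.418), a fitted difference of 0.274 ± 0.0756 (SE, adjusted p = 0.0175). The EIF2AK2 site whose window is printed above was 0.241 ± 0.064 higher, with 0.5 to 0.625 in 5 derivative-line samples and 0.0417 to 0.668 in 69 others. Among the other samples, the K562 time course had SSR4 medians of 0.625, 0.806, 0.875, 0.667 and 0.802 at 6, 12, 24, 36 and 48 h. Its medians at this EIF2AK2 site were 0.194, 0.51, 0.419, 0.405 and 0.464. A 3′ UTR site of CARD8, a sensor of the inflammasome, was 0.167 ± 0.0406 higher, with 4 derivative-line samples from 0.0826 to 0.556. All groups overlapped. Without the 4 AsiSI samples, the SSR4 site alone of these was still called, at 0.319 ± 0.0954 (limma adjusted p = 0.0471); EIF2AK2 was at 0.258 ± 0.0826 (adjusted p = 0.0634), CARD8 could no longer be tested, and a 3′ UTR site of AJUBA was called lower, at -0.201 ± 0.0593.

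In the samples with actinomycin D after a drug, 13 recurrent sites were higher and 1 lower of 401 tested, and 2.72% of all 514 sites were called. The largest difference was at a 3′ UTR site of SMU1, 0.406 ± 0.0885 (limma adjusted p = 0.013). Introns of SREBF2, a transcription factor of sterol synthesis, with 0.399 ± 0.0952, of STXBP5, with 0.387 ± 0.0862 and 0.357 ± 0.0827 at a pair of sites, and of CKS2, a subunit of cyclin-dependent kinases, with 0.384 ± 0.0785, came next. The site that fell was in the 3′ UTR of CARD8 at 48255827 on chromosome 19, with a difference of -0.107 ± 0.0298. With 1 site kept per cluster, 4 of the 253 recurrent sites left were called.

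Other families gave fewer calls. After wash-out, 2 of 108 recurrent sites were lower, and 1.79% of the 112 sites tested were called. The intron site of ESPL1, the protease separase, lay between 0.2 and 0.444 (median 0.298) in all 9 wash-out samples and between 0.2 and 0.85 over all 51 samples that recorded it, a fitted difference of -0.22 ± 0.0566 by limma (adjusted p = 0.0333). ADPGK, a glucokinase that uses ADP, was at 0.438 to 0.628 in 5 wash-out samples and differed by -0.208 ± 0.0563. Each call was lost once: ADPGK on the arcsine scale (limma adjusted p = 0.0703), and ESPL1 without the 10 samples whose names are in doubt (adjusted p = 0.0562). With alpha-amanitin, limma called 0 of 188 recurrent sites and 0% of the 218 sites tested, and 12 recurrent sites had an unadjusted p under 0.05. After pretreatment it called 0 of 268 and 0% of 319, with 39 at an unadjusted p under 0.05, and the median difference was -0.0466 over the recurrent sites and -0.047 over all sites tested.

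Samples with a single agent or none had 8 higher recurrent sites of 501 tested, and 1.18% of the 676 sites were called. MRPS22, a protein of the mitochondrial ribosome, led with 0.324 ± 0.0469 by limma (adjusted p = 3.93e-06). NEIL1 was higher by 0.237 ± 0.0532, GGA1, a Golgi adaptor, by 0.229 ± 0.0569 and C1orf52 by 0.224 ± 0.0464. Both often recorded GNL3L sites, PPIA and SON made up the remainder. This family contains the long time course. Without the 22 time-course samples limma called 0 of 222 recurrent sites, with 27 at an unadjusted p under 0.05.

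The matched comparisons of drugs gave no calls. Doxycycline was compared with water within 8 pairs of derivative-line samples, where 12 sites, all recurrent, could be tested, and limma called 0, or 0%, with none at an unadjusted p under 0.05. The SSR4 site differed by -0.112 ± 0.07. Etoposide was compared with DMSO within 13 pairs of samples given the same later steps; limma called 0 of 91 sites, all recurrent, or 0%, and 11 had an unadjusted p under 0.05. The estimate was above 0 at 64 of the 91, with a median of 0.0254, and the smallest adjusted p was 0.335.

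Levels at many recurrent sites rose with time in culture. In 22 samples kept for 6 to 48 h with DMSO, imatinib, etoposide or romidepsin, 89 sites could be tested for a slope of level on hours, all of them recurrent. Limma called 24, all rising, which is 27% of the sites tested, and 74 of the 89 slopes were above 0, with a median of 0.0303 per 10 h.

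The coding site of SON had the clearest slope, 0.0552 ± 0.00531 per 10 h (adjusted p = 4.43e-08, 22 samples). At 6 h its level lay between 0.01 and 0.03 in 6 samples, with a median of 0.02. At 12 h it was 0.03 with DMSO, 0.04 with imatinib and 0.07 and 0.09 in the other two samples. It reached 0.13, 0.13, 0.15 and 0.2 at 24 h and 0.19, 0.19, 0.21 and 0.21 at 36 h. At 48 h it was 0.18, 0.259, 0.271 and 0.273. No sample of 24 h or more overlapped any of 12 h or less. The highest SON level over the 96 samples was 1 of these at 48 h, and the list needed a level above 0.2 in some sample. The part of that rule in this slope was not tested.

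PPIA rose as well, with a slope of 0.0599 ± 0.00615 (limma adjusted p = 1.15e-07). Its 3′ UTR site had a median of 0.06 in 5 samples at 6 h (range 0.03 to 0.0838). At 12 h it was 0.07, 0.07, 0.124 and 0.133, and at 24 h 0.158, 0.163, 0.206 and 0.234. It lay between 0.219 and 0.313 at 36 h. At 48 h the levels were 0.244, 0.294, 0.316 and 0.352, above every level at 24 h or before.

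The I635V site of COG3 rose by 0.0582 ± 0.0126 per 10 h (limma adjusted p = 0.00227). Levels of 0.07, 0.09, 0.119 and 0.138 at 6 h stood against 0.303, 0.344, 0.369 and 0.398 at 48 h, without overlap, and the highest single level was 0.5 with DMSO at 36 h. DACT3, the other called coding change, had 0.24 and 0.253 at 6 h and 0.689 in the only sample recorded at 48 h, with a slope of 0.0741 ± 0.0201. The NEIL1 slope was 0.0154 ± 0.0226 and that of the first BLCAP site 0.0221 ± 0.0126, neither called.

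Steep called slopes were found at sites of higher level. TMEM245, a membrane protein, gained 0.0888 ± 0.0232 per 10 h (limma adjusted p = 0.0128), with 0.186 and 0.3 at 6 h and 0.571 and 0.6 at 48 h. CHD1, a chromatin remodeller, gained 0.0817 ± 0.018. Its intron site was recorded in 1 sample at 6 h, at 0.375, and in all 4 samples at 48 h at 0.774, 0.778, 0.82 and 0.855. MRPS22 gained 0.0784 ± 0.0254 and CALU, a calcium-binding protein of the secretory pathway, 0.0774 ± 0.0179. MRPS22 was recorded at 0.13 and 0.5 at 6 h and at 0.588, 0.688, 0.761 and 0.903 at 48 h. The most often recorded GNL3L site rose from 0.116 to 0.358 at 6 h to 0.373, 0.46, 0.518 and 0.523 at 48 h. The slopes of UPK2 (-0.00405 ± 0.00705), whose level was 1 in most samples, and MTCH1 (-0.0081 ± 0.017) lay within their errors. Of the other sites of low SD, SEC61A1 rose by 0.031 ± 0.00516 (limma adjusted p = 0.000162). The GNL3L site at 54561640 rose by 0.0291 ± 0.00536 (limma adjusted p = 0.000638). Neither the SPCS3 site at 176331087 (0.017 ± 0.00698) nor the antisense site at 73061025 (-0.00319 ± 0.0086) was called. The highest SEC61A1 level over the 96 samples, 0.212, was at 48 h.

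**Figure D4:**
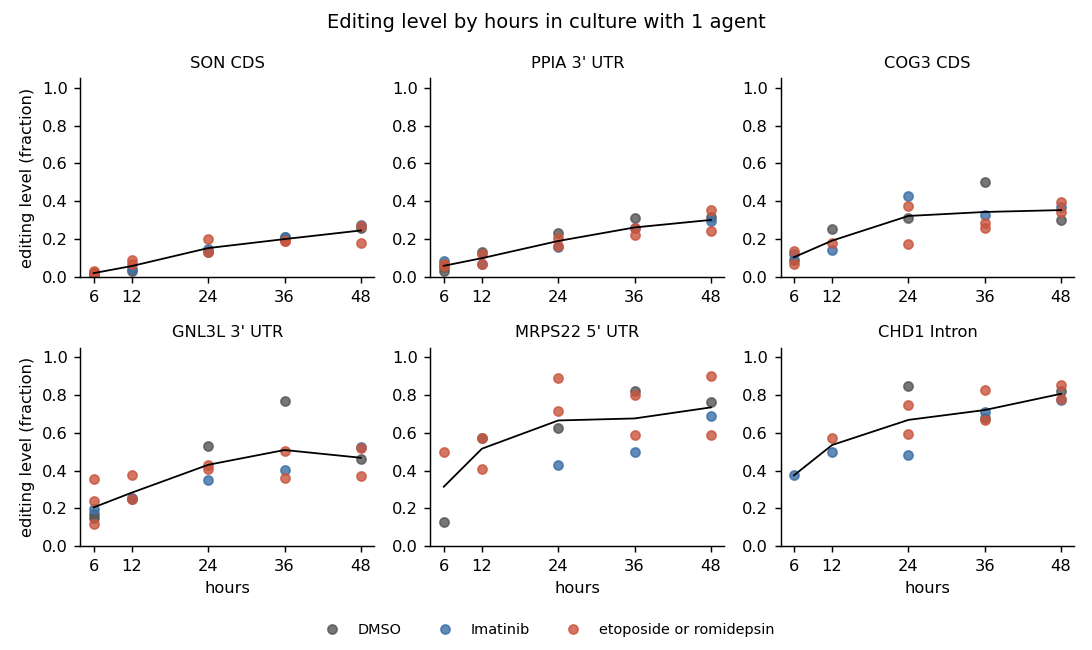
Editing level as a fraction (vertical axis) against hours in culture with 1 agent (horizontal axis) at 6 called sites; points are samples, coloured by agent, and the black line joins the mean at each time. At all 6 sites the mean at 48 h lies above that at 6 h, and SON goes from at most 0.03 at 6 h to at least 0.18 at 48 h.

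Of the 24 called sites, 12 lay in 3′ UTRs, 5 in introns, 3 in coding sequence, 2 in 5′ UTRs and 2 in exons of noncoding RNAs, out of 26, 41, 5, 6 and 3 tested. At 11 of them the samples of 36 and 48 h lay wholly above those of 6 and 12 h, as at 12 of all 89 tested, where 27% of all sites tested were called. More recurrent intron sites were also recorded as time went on. There were 42 to 75 (median 48.5) per sample at 6 h and 112 to 167 (138) at 48 h, without overlap. Recurrent sites in 3′ UTRs numbered 16 to 45 at 6 h and 28 to 40 at 48 h. Over all listed sites, 102 to 269 were recorded per sample at 6 h and 451 to 633 at 48 h, also without overlap. The median level over the recorded recurrent sites was 0.358 at 6 h and 0.416 at 48 h. Sites entered the list only if some sample exceeded 0.2, and 148 of the 579 recurrent sites had their highest level in 1 of the 12 samples of 24 to 48 h, including 15 of the 24 called. The part of this rule in the slopes was not tested. When the etoposide and romidepsin samples were left out, 15 of the 39 sites that could still be tested were called, 13 of them among the 24.

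Actinomycin D, which stops the synthesis of new RNA, was given for 0 to 6 h after 6 h of a drug in 19 samples. Of 65 sites that could be tested for a slope on its hours within the first drug, all recurrent, limma called 17, all rising, or 26.2%. Slopes were above 0 at 55 of the 65, with a median of 0.0139 per hour. The called sites were 12 of 40 in 3′ UTRs and 5 of 18 in introns, and none of the 3 coding sites tested.

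The EIF2AK2 site printed above had the smallest adjusted p, 4.41e-06 by limma, with a slope of 0.0488 ± 0.00491 per hour. At 0 h its level was 0.15, 0.16, 0.196, 0.202 and 0.24, and at 1 h 0.131 and 0.224. It was 0.223, 0.281, 0.283, 0.325 and 0.376 at 2 h and 0.351 and 0.417 at 4 h. All 5 samples at 6 h, after DMSO, talazoparib, SN-38, etoposide or cyclophosphamide, lay between 0.376 and 0.549, above every sample of 0 and 1 h. Actinomycin D alone, outside this fit, gave 0.14 at 2 h and 0.269 at 6 h. Another pair of EIF2AK2 sites also rose, by 0.0436 ± 0.006 and 0.00944 ± 0.00288 per hour.

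The SMU1 site printed above rose by 0.0917 ± 0.0113 per hour (limma adjusted p = 6.96e-05). It was at 0.1, 0.125, 0.154 and 0.24 at 0 h, 0.6 and 0.625 at 4 h and 0.5, 0.605, 0.775 and 0.889 at 6 h. A further 3 SMU1 sites were called, with slopes from 0.0262 to 0.0529. BSDC1, a protein with a BSD domain, rose from 0.07 and 0.1 at 0 h to 0.398, 0.539, 0.582, 0.665 and 0.784 at 6 h, a slope of 0.0869 ± 0.0121. PGGT1B, a subunit of an enzyme that attaches lipids to proteins, gained 0.0796 ± 0.0169 per hour, from 0.0667 to 0.147 at 0 h to 0.589 to 0.792 at 6 h.

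The largest slope, 0.104 ± 0.0249 per hour, was in an intron of ADGRB3, an adhesion receptor, over 10 samples (limma adjusted p = 0.0356). It was 0.422 and 0.596 at 0 h and 1 in the only sample recorded at 6 h. NSMAF, a factor of sphingomyelinase activation, gained 0.0694 ± 0.0225 at an intron site that lay between 0.234 and 0.321 at 0 h and at 0.5 and 0.894 at 6 h. The GNL3L site in 95 samples rose by 0.0277 ± 0.00503. The first BLCAP site gave -0.00417 ± 0.00446, its levels of 0.13 to 0.193 at 0 h overlapping 0.126 to 0.223 at 6 h. PPIA, which rose with culture time, stayed between 0.02 and 0.06 in the 15 of these 19 samples that recorded it.

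**Figure D5:**
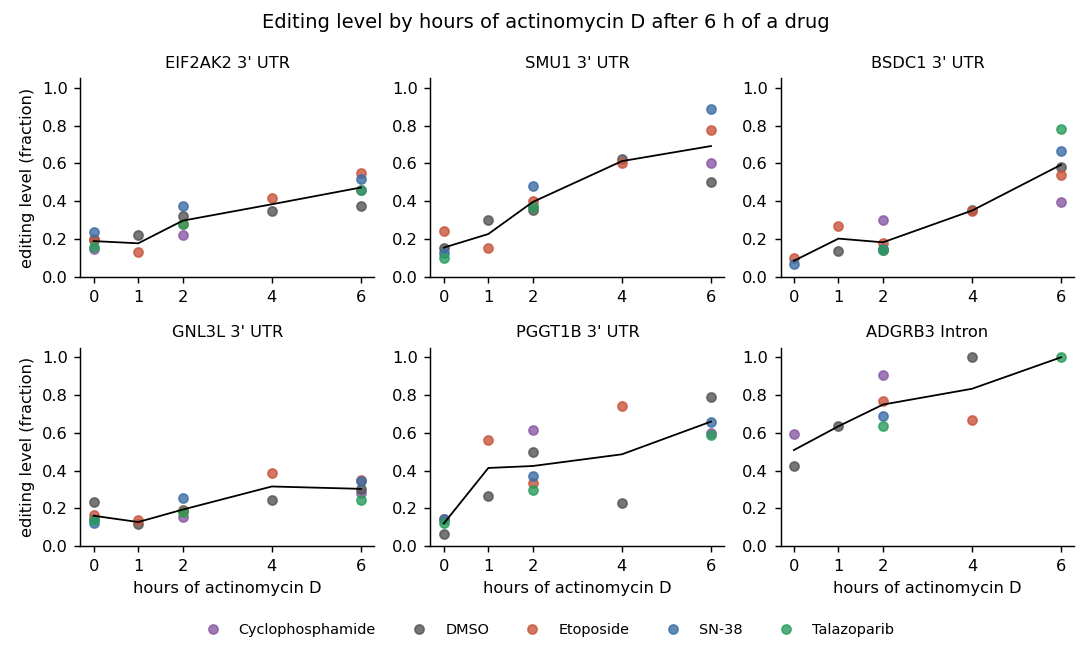
Editing level as a fraction (vertical axis) against hours of actinomycin D (horizontal axis) at 6 called sites; points are samples, coloured by the drug given for 6 h before, and the black line joins the mean at each time. BSDC1 goes from at most 0.1 at 0 h to at least 0.398 at 6 h.

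At 6 of the 17 called sites the samples of 4 and 6 h lay wholly above those of 0 and 1 h, as at 9 of all 65 tested, where 26.2% of all sites tested were called. Over the recurrent sites recorded in a sample, the median level was 0.222 to 0.255 at 0 h and 0.275 to 0.387 at 6 h. Intron sites had medians of 0.231 to 0.362 at 0 h and 0.365 to 0.5 at 6 h, and their number per sample went from 67 to 97 at 0 h to 38 to 81 at 6 h. Sites in 3′ UTRs numbered 32 to 56 at 0 h and 47 to 65 at 6 h, with medians of 0.125 to 0.146 and 0.167 to 0.25. Fewer intron transcripts and less editing of them cannot be told apart in a list without depth. The medians and slopes use recorded levels only, and the part of unrecorded low levels in their rise was not tested. With 1 site kept per cluster, 11 of 42 were called.

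The 2 slopes were fitted to different samples. Of the 28 sites tested in both, 10 were called for hours in culture, 8 for hours of actinomycin D and 5 for both: a pair each of EIF2AK2 and GNL3L 3′ UTR sites and the 3′ UTR site of STRIP2, a subunit of a phosphatase and kinase complex. These 5 are 20.8% of the 24 sites called for culture time and 29.4% of the 17 called for actinomycin D.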

How the data were processed

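Total RNA from 96 K562 samples is covered. The authors aligned reads to GRCh38 (the submitters' notes name TopHat2 2.1.1, Picard 2.0.1 and SAMtools 1.9), called sites with REDItools, RED-ML and SPRINT, removed known variants and repeats, and deposited for each site and sample an editing level as a fraction, the mean over the callers that found it. Of 130 sample columns, 34 were not used here. Read depth per site was not used here, and no interval for a level is given.

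Levels of 0 were treated as missing. Sites were compared with limma 3.58.1 in R 4.3.3 (Benjamini-Hochberg over all testable sites, threshold 0.05), with at least 3 recorded levels on each side, 3 complete pairs, or 8 levels with 3 at each end of a slope; the fits were tested on simulated data. Wilson intervals are at 95% and cover counting error only. Host genes come from GENCODE release 44 and sequences from the GRCh38 reference.

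Named were the 10 sites in most samples, the 5 with the lowest and highest SD and median among sites in at least 30 samples, all coding sites, the leading host genes, and up to 5 called sites of each comparison with the largest difference; SON, PPIA and COG3 by hours, and the sites of the gene lists, of near pairs and of both slopes, were added after their values were seen. A few sites that the rule names are not reported here. The recurrent sites and gene lists were chosen with earlier results of these data known. Alternatives covered the scale, the minimum of levels, clusters, low levels, samples and blocks.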

Additional observations from a re-analysis of the deposited data

Results flagged for a closer look

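Single samples stood apart from the rest of their time point at 4 sites, among 88 groups of 4 to 10 samples examined with Dixon's criterion, which chance meets in about 1 of 20 groups. SON was at 0.18 in 1 sample of 48 h in culture, where the others were at 0.259 to 0.273. The GNL3L site recorded in 95 samples was at 0.379 in 1 sample of 12 h, against 0.251 to 0.254. STRIP2 was at 0.175 in 1 sample of 6 h of actinomycin D, against 0.219 to 0.234. BSDC1 was at 0.303 after cyclophosphamide with 2 h of actinomycin D, where the other four samples were at 0.14 to 0.181.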

How the results depend on the processing

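Over 104 alternatives to 17 results, 89 stayed within 1.5 times the count of calls or within the interval or spread of the value. Comparisons without calls that stayed at 0 are among them. So is the median level, 0.333 and 0.419 with 1 site per cluster, because its spread is the SD between sites. The direction of a change was not part of this rule. Calls for the samples with actinomycin D after a drug fell from 14 to 4 with 1 site per cluster and to 9 with levels of 0.05 or lower left missing; those for a single agent or none fell from 8 to 3 with low levels missing, to 1 without the 10 samples whose names are in doubt and to 0 without the 22 time-course samples. The 2 calls of wash-out fell to 1 on the arcsine scale and to 1 without the samples in doubt. Calls for hours of actinomycin D fell from 17 to 11 with 1 site per cluster, and those for hours in culture from 24 to 15 without etoposide and romidepsin; fewer sites could be tested in both. Leaving out 1 pair at a time gave 0 to 1 calls for doxycycline, the 1 without the LINE pair, and 0 for etoposide; without the pairing by treatment steps, both stayed at 0. These pairs are matched by line or treatment, not by replicate number. By replicate number, no paired analysis was possible because no comparison sets against each other the conditions whose labels share such numbers. With 1 site per cluster, 63.2% of the recurrent sites were in introns, 12.8% in 3′ UTRs, 54.6% followed a U and 63.2% had a listed neighbour within 100 bases, and with a minimum of 15 samples 26.7% were in 3′ UTRs. The cause of these shifts was not tested beyond the smaller number of sites. The alternatives without time-course samples, without etoposide and romidepsin and without shallow derivative-line samples were chosen after seeing the data. Of the 3 calls of the derivative lines, all 3 were kept without the shallow samples, but 1 without the 4 AsiSI samples, where 1 of the 2 sites called was lower. Unknown depth limits every level: few reads give coarse values such as 0.5 and 1.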

Other observations

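The derivative lines that overexpress AsiSI had PPIA at 0.1495 and 0.23 with doxycycline for 4 and 13 days and at 0.179 and 0.423 with water, whereas the other 4 derivative-line samples that recorded it were at 0.02 to 0.08. SON was recorded in no derivative line but these, at 0.07 to 0.1. These values were picked out after they were seen and were not compared by a test.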
